A study of Homo sapiens with 7 samples.

Results

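The C/EBP genes CEBPA, CEBPB, CEBPD and CEBPE were examined for binding of the vitamin D receptor (VDR) in THP-1 cells, an established line of human monocytic leukaemia. Each gene was taken with 100 kb on either side in hg19, and every VDR peak that overlapped this window was counted as belonging to it, in each peak list that reached the locus. This gave 20 of the 89218 peaks in the lists, and 14 of 77124 sites once peaks sharing at least 1 bp across lists had been merged. CEBPA had 13 of these peaks at 7 sites, CEBPB 4 peaks at 4 sites, CEBPD 3 peaks at 3 sites and CEBPE none.

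THP-1 cells had been treated for 8 h with 100 nM 1α,25-dihydroxyvitamin D3 (1,25D, the ligand of VDR) or for 8 h with the solvent, 0.1% ethanol (EtOH), with 3 libraries per treatment. VDR-bound DNA was recovered with an antibody against VDR by ChIPmentation, where the adapters for sequencing are inserted by a transposase during the chromatin immunoprecipitation. An input library of THP-1 cells was not analysed here. The labels name no separate cultures, so the spread between libraries, and the p-values built on it, may be technical. RNA was not measured, so neither the monocytic identity of the cells nor the expression of the C/EBP genes was checked.

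The lists held between 3647 and 33820 peaks, each with the authors' fold enrichment over background and p-value. Sequencing depth is unknown, because read counts are not given. As used here, 3 lists stop before the end of the genome, so the loci differ in how many libraries reach them. CEBPE on chromosome 14 was covered by 3 1,25D and 3 EtOH lists. CEBPA on chromosome 19 and CEBPB on chromosome 20 were covered by 2 1,25D lists (replicates 1 and 3) and 3 EtOH lists. CEBPD on chromosome 8 was covered by 1 1,25D list (replicate 1) and 2 EtOH lists (replicates 1 and 2).

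C/EBP proteins are basic leucine zipper transcription factors that bind DNA as dimers and control the differentiation of myeloid blood cells, among other tissues. C/EBPα, from CEBPA, drives the commitment of progenitors to the granulocyte and monocyte lineages, and C/EBPβ, from CEBPB, acts in monocyte and macrophage differentiation and inflammatory gene expression. C/EBPδ, from CEBPD, is induced in the acute phase and inflammatory responses, and C/EBPε, from CEBPE, is needed for the late maturation of granulocytes. VDR works as a dimer with RXR, classically on pairs of hexamers spaced 3 bases apart, and 1,25D is known to push myeloid leukaemia cells toward monocytes.

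The promoters are shown because no list that reached a gene had a peak at its start. The share of other gene starts without a peak was not counted, so this absence is not read as particular to the C/EBP genes. RefSeq windows of 250 bases before to 50 bases after the gene start (GRCh38.p14, another build than the peaks, so that they may not match the hg19 starts to the base) were at hand for 3 of the 4 genes. Capitals mark TATAAA. CEBPB has 2 starts in the table, and the one with TATAAA is printed. The windows lie on the minus strand at chr19:33302485-33302784 for CEBPA, on the plus strand at chr20:50190580-50190879 for CEBPB and on the minus strand at chr14:23119206-23119505 for CEBPE.
CEBPA: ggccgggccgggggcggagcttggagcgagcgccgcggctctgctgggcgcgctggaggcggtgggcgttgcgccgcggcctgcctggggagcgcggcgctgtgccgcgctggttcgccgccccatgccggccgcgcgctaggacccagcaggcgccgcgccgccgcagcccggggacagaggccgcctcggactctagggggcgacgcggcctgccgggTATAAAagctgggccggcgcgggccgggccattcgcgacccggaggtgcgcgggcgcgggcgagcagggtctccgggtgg
CEBPB: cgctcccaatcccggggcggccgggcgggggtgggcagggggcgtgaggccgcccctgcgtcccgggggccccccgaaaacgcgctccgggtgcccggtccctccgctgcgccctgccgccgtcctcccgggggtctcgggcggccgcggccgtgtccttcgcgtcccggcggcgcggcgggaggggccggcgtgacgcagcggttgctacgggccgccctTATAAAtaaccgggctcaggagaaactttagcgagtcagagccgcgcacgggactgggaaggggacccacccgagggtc
CEBPE: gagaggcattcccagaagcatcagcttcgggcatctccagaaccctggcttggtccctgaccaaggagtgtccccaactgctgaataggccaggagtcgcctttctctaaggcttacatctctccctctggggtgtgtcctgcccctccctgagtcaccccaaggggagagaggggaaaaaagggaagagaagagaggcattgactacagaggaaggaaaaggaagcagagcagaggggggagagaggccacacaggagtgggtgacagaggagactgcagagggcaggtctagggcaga
TATAAA began 30 bases before the gene start in CEBPA and 29 bases before it in CEBPB, and was absent from the CEBPE window. Searched on both strands, it occurred in 11.5% of the 35116 promoter windows of the table. The VDR hexamers with the spelling AGGTCA or AGTTCA, or with the spelling GGGTCA or GGTTCA, searched on both strands, were in none of the printed windows, nor in the other CEBPB window, while 38.6% of all windows had at least 1. A pair of them 3 bases apart on 1 strand was in 0.074% of all windows. The C/EBP palindrome TTGCGCAA was likewise not found in the windows of these genes, and was in 0.151% of all windows. These are matches of letters only, and hexamers of other spelling were not searched. The CEBPA and CEBPB windows were rich in G and C, at 80.7% and 76.7%, against 57.7% for CEBPE and a median of 58.7% over all windows.

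The comparison of 1,25D with EtOH asked how VDR binding near these genes differed with the hormone. CEBPA carried the only VDR site in the 4 windows with a fold of 5 or more, and it was called with and without 1,25D. CEBPA also had the only site that was called in both covering 1,25D lists and in no EtOH list, a weak one 1.24 kb beyond the 3′ end of the gene. Near CEBPB and CEBPD every site was weak and was found in a single list, and near CEBPE no peak was called in any of the 6 lists. Weak sites of a single list were the usual kind in these data. The 89218 peaks merged into 77124 sites, so most sites held a single peak, and the median fold of the lists was 3.01 to 3.71.

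**Figure D1:**
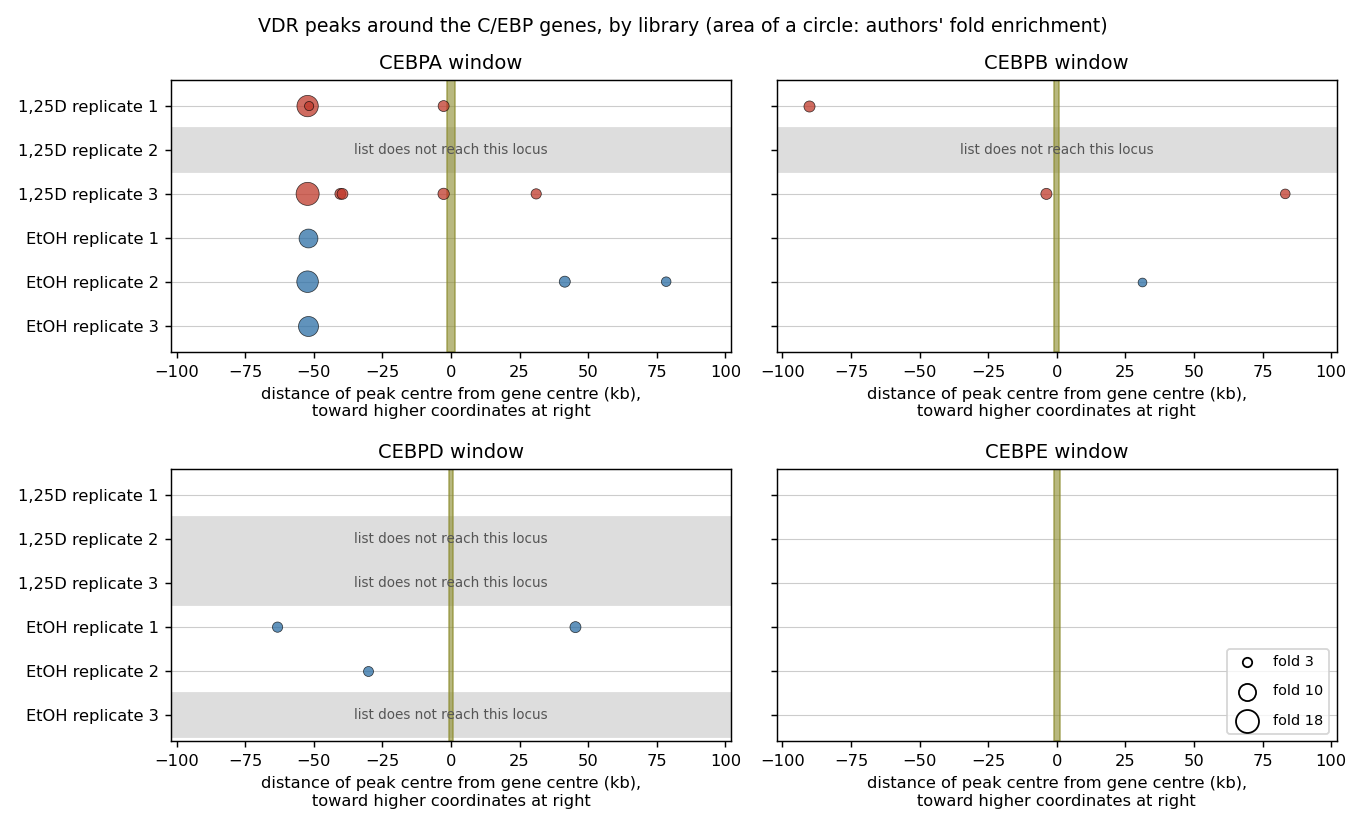
VDR peaks in the windows of CEBPA, CEBPB, CEBPD and CEBPE. The x axis is the distance of the peak centre from the gene centre in kb, each row is a library, the area of a circle is the authors' fold enrichment, the olive band is the gene and grey rows are lists that do not reach the locus. The large circles in all 5 covered CEBPA rows are the site called with folds of 12.1 to 18.2, and every other peak has a fold of at most 4.42.

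The strong site lay 50.3 kb from CEBPA on its 3′ side, on chromosome 19 at 33739369 to 33740507 when merged over the lists. The authors' fold was 15.5 and 18.2 in 1,25D replicates 1 and 3, against 12.1, 15.8 and 13.6 in EtOH replicates 1 to 3. The folds of the treatments overlapped, since EtOH replicate 2 stood above 1,25D replicate 1. The authors' p-values were 5.46e-40 and 4.78e-50 in the 1,25D lists, against 1.16e-28, 1.32e-35 and 2.76e-34 in the EtOH lists. The strongest peak of each list covered the stretch from 33739493 to 33740275, which is 782 bp, so the 5 calls share most of their length. The peaks were 811 and 1012 bp long in 1,25D replicates 1 and 3, against 877, 890 and 786 bp in EtOH replicates 1 to 3. In 1,25D replicate 1 a small further peak of fold 2.88 adjoined it, and it was merged into the site.

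Of the 23253 sites in the stretch of the genome covered by these 5 lists, 311 (1.34%) were called in every list, and the CEBPA site is 1 of them. Among windows of the same length laid end to end over that stretch, 5.38% held such a site. The mean fold at the CEBPA site was 16.9 ± 1.85 in 1,25D lists (SD, n = 2) and 13.8 ± 1.87 in EtOH lists (SD, n = 3), a ratio of 1.22. Folds come from lists that were called separately and were not tested against each other. Over the 311 sites the ratio had a median of 1.61 (quartiles 1.26 and 2.22), and 66 sites (21.2%) had a lower ratio than the CEBPA site.

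The place of the CEBPA site among these 311 sites was then ranked within each list, from 1 for the highest fold. It ranked 68 and 61 in 1,25D replicates 1 and 3, against 28, 16 and 21 in EtOH replicates 1 to 3. The ranks did not overlap, with the site further down in each 1,25D list than in any EtOH list. The mean rank was 42.8 places further down with 1,25D, (two-sided exact permutation test, p = 0.2, which is also the lowest value this design can give). Ranks separated in this direction at 73 of the 311 sites (23.5%) and in the other direction at 70 (22.5%), so such a shift, in either direction, was common among the shared sites. Ranks are relative, and a site moves down the order when others move up. On chromosome 19 the site was the seventh by mean 1,25D fold and the third by mean EtOH fold of 31 sites called in every list.

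**Figure D2:**
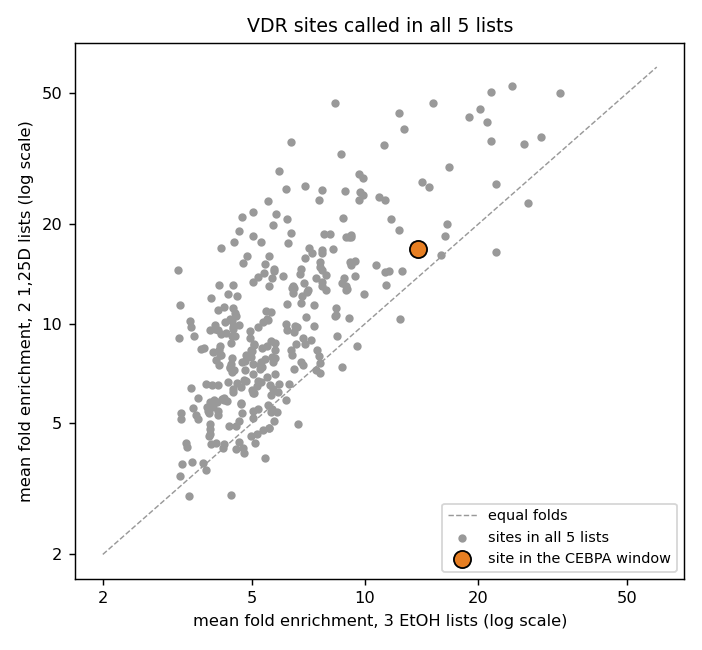
Mean fold enrichment of the 311 VDR sites called in all 5 lists, in EtOH lists on the x axis and in 1,25D lists on the y axis (both log scales). The orange point is the CEBPA site, at 16.9 in 1,25D lists and 13.8 in EtOH lists, closer to the dashed line of equal folds than most grey points.

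The 1,25D-only site of CEBPA lay on chromosome 19 at 33789311 to 33789599, 3.87 kb downstream of the gene start. Its fold was 4.11 in 1,25D replicate 1 and 4.42 in 1,25D replicate 3, and no EtOH list had a peak there. A peak that is not listed did not pass the caller's threshold, which does not show that VDR was absent. In the covered stretch 627 of 23253 sites (2.7%) were called in both 1,25D lists and in no EtOH list, and 9.89% of windows of this length held one. With a mean fold of 4.27 the CEBPA site stood below the median of these 627 sites, 4.76 (quartiles 3.96 and 5.83). Leaving out a library eases the condition: 4 sites in the CEBPA window met it without 1,25D replicate 1 and 2 without 1,25D replicate 3. The 2.7% and 9.89% do not apply to this eased condition, whose share in this stretch is not given here. In the stretch of CEBPD, where 1 1,25D list sets the condition, 21.1% of sites met it and 50.4% of windows held such a site. No site in any of the 4 windows was called in every EtOH list and in no 1,25D list, a pattern seen at 0.0086% of sites in the stretch of CEBPA and CEBPB, 0.818% in that of CEBPD and 0.0379% in that of CEBPE.

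The other 5 sites in the CEBPA window were each in 1 list. Those of 1,25D replicate 3 were at 38.9 and 38.2 kb from the gene on the side of the strong site, both with a fold of 4.01, and at 29.6 kb upstream with a fold of 3.59. Those of EtOH replicate 2, the longest list, were 40.1 and 77.0 kb upstream, with folds of 4.15 and 3.15. The fold and p-value of the first of these EtOH peaks were also those of 2804 other peaks in its list, and those of the second were shared by 3798 others. The 2 peaks with a fold of 4.01 lay less than 1 kb from each other and shared their fold and p-value.

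Per library the CEBPA window held 3 and 5 peaks in 1,25D replicates 1 and 3, against 1, 3 and 1 peaks in EtOH replicates 1 to 3. The mean was 4 ± 1.41 in 1,25D libraries (SD, n = 2) and 1.67 ± 1.15 in EtOH libraries (SD, n = 3), a difference of 2.33 peaks with a two-sided exact permutation p of 0.4, where 0.2 is the smallest possible. The treatments touched at 3 peaks, and the test did not separate them. With 200 kb on each side the means were 5 in 1,25D libraries and 2 in EtOH libraries, a difference of 3 with an exact permutation p of 0.2. Both replicates 1 were listed down to a lower highest p than the others, and between them the numbers were 3 for 1,25D and 1 for EtOH, while among the others they were 5 for 1,25D and a mean of 2 for EtOH. The difference was 1.33 without 1,25D replicate 3 and 3.33 without 1,25D replicate 1. Counting peaks with a fold of 5 or more, every covering list had 1 peak in the window and the treatments did not differ. Over the whole lists, 2285 of 15262 and 1876 of 8620 peaks reached that fold in 1,25D replicates 1 and 3. In EtOH replicates 1 to 3 the numbers were 767 of 15974, 873 of 33820 and 450 of 11895. A median window of this length in the same stretch held 5 peaks over the 5 lists, and 3.5% of windows held as many as the 13 of CEBPA or more, of which 6 belong to the strong site.

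**Figure D3:**
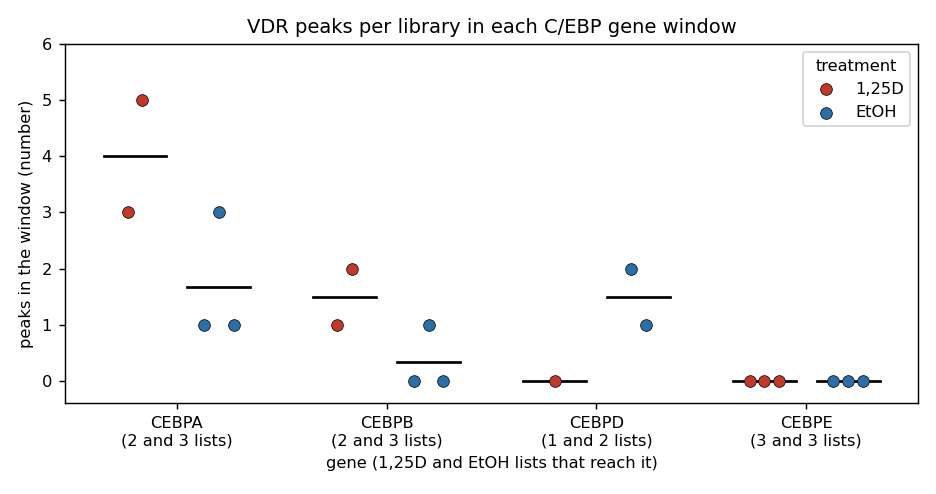
Number of VDR peaks in the window of each gene, by library. Points are libraries, red for 1,25D and blue for EtOH, horizontal lines are the means, and the x axis gives the number of 1,25D and EtOH lists that reach each gene. The treatments share the value 3 at CEBPA and the value 1 at CEBPB, and all 6 libraries are at 0 at CEBPE.

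The CEBPB window held 1 and 2 peaks in 1,25D replicates 1 and 3, against 0, 1 and 0 peaks in EtOH replicates 1 to 3. The mean was 1.5 ± 0.707 in 1,25D libraries (SD, n = 2) and 0.333 ± 0.577 in EtOH libraries (SD, n = 3), a difference of 1.17 with a two-sided exact permutation p of 0.4, where 0.2 is the smallest possible. The libraries overlapped at 1 peak. The difference was 0.667 without 1,25D replicate 3 and 1.67 without 1,25D replicate 1. It was 0.167 with 50 kb on each side and 2.67 with 200 kb, where the means were 4 in 1,25D libraries and 1.33 in EtOH libraries (exact permutation p = 0.2) and the strong site described next is included. Between both replicates 1 the numbers were 1 for 1,25D and 0 for EtOH, and among the other libraries 2 for 1,25D and a mean of 0.5 for EtOH.

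No 2 of the CEBPB peaks overlapped, and none reached a fold of 5. The one closest to the gene was in 1,25D replicate 3, on chromosome 20 at 48804382 to 48804649, 2.73 kb upstream of the gene start, with a fold of 4.21. The same list had a peak 82.2 kb beyond the 3′ end with a fold of 3.20, and 1,25D replicate 1 had a peak 89.3 kb upstream with a fold of 4.21. The fold and p-value of that last peak recurred at 1468 other peaks of its list. EtOH replicate 2 had a peak 29.9 kb beyond the 3′ end with a fold of 2.63, and only 9.06% of its list had a lower fold. Over the 5 lists the window held 4 peaks, and 62.2% of windows of its length in the same stretch held as many or more. If 1,25D replicate 1 is left out, 2 sites meet the 1,25D-only condition, and 1 site does if 1,25D replicate 3 is left out, because a single list then sets it. The share of all sites that met this eased condition is not given here.

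A far stronger site lay just outside the CEBPB window, 102.9 kb upstream of the gene on chromosome 20 at 48703777 to 48704458. Its fold was 17.6 and 14.0 in 1,25D replicates 1 and 3, against 5.86 and 4.26 in EtOH replicates 1 and 3, and EtOH replicate 2 had no peak there. Both 1,25D folds were above every EtOH fold, and how many sites of this stretch separated in this way is not given here. Over the 311 sites called in all 5 lists, the ratio of mean folds had a median of 1.61 and a lower quartile of 1.26. Higher folds in 1,25D lists were thus common in this stretch. The site upstream of CEBPB ranked 193 and 265 in its 1,25D lists, against 394 and 733 in its EtOH lists. These ranks come from lists of unequal length and are given only to place it. It was singled out after its values were seen, and it does not count for CEBPB under the 100 kb limit, inside which the furthest peak stood at 89.3 kb with a fold of 4.21. A further site 156.5 kb beyond the 3′ end was called in both 1,25D lists, with folds of 5.41 and 7.76, and in no EtOH list.

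The CEBPD window held no peak in 1,25D replicate 1, against 2 and 1 peaks in EtOH replicates 1 and 2. With 1 1,25D library there is no test. The EtOH replicate 1 peaks lay 62.5 kb from the gene toward lower coordinates and 44.6 kb from it toward higher coordinates, with folds of 3.60 and 4.14. The EtOH replicate 2 peak lay 29.4 kb from it toward lower coordinates, with a fold of 3.41. These were short peaks of 148 to 171 bp, and the 2 EtOH lists did not share a site. In this stretch 1.22% of the 18836 sites were called in all 3 lists and 21.1% in the 1,25D list alone, and no site near CEBPD was of either kind. Among windows of the CEBPD length, 6.12% held a site of the first kind and 50.4% of the second. Windows with 3 peaks or more made up 56.2% of those of this length. The closest peak of 1,25D replicate 1 was 136 kb away, with a fold of 4.37, and it overlapped an EtOH replicate 1 peak with a fold of 3.67.

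CEBPE was the gene with the fullest coverage and had 0 peaks in each of 3 1,25D libraries and 0 in each of 3 EtOH libraries. With every value at 0 the permutation test has nothing to rank. In the stretch covered by all 6 lists, 1.7% of 28989 sites were called in every 1,25D list and no EtOH list and 1.03% in every list, and none of these is near CEBPE. Among windows of the CEBPE length, 8.62% held a site of the first kind and 5.86% of the second, so most windows had neither. Windows of the same length with no peak in any of the 6 lists made up 11.6% of 4777 windows in this stretch, where the median window held 5 peaks. The nearest peaks stood 186.9, 126.2 and 164.4 kb from the gene in 1,25D replicates 1 to 3, against 186.9, 138.2 and 682 kb in EtOH replicates 1 to 3.

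Further out from CEBPE, a weak site on chromosome 14 at 23775538 to 23775959, 186.7 kb upstream of the gene, was called in 5 of the 6 lists. Its fold was 4.24, 3.92 and 4.83 in 1,25D replicates 1 to 3, against 4.20 and 4.41 in EtOH replicates 1 and 2, and EtOH replicate 3 had no peak there. The treatments overlapped. The closest site called in every list was 970 kb upstream, with a mean fold of 10.2 in 1,25D lists and 8.69 in EtOH lists.

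**Figure D4:**
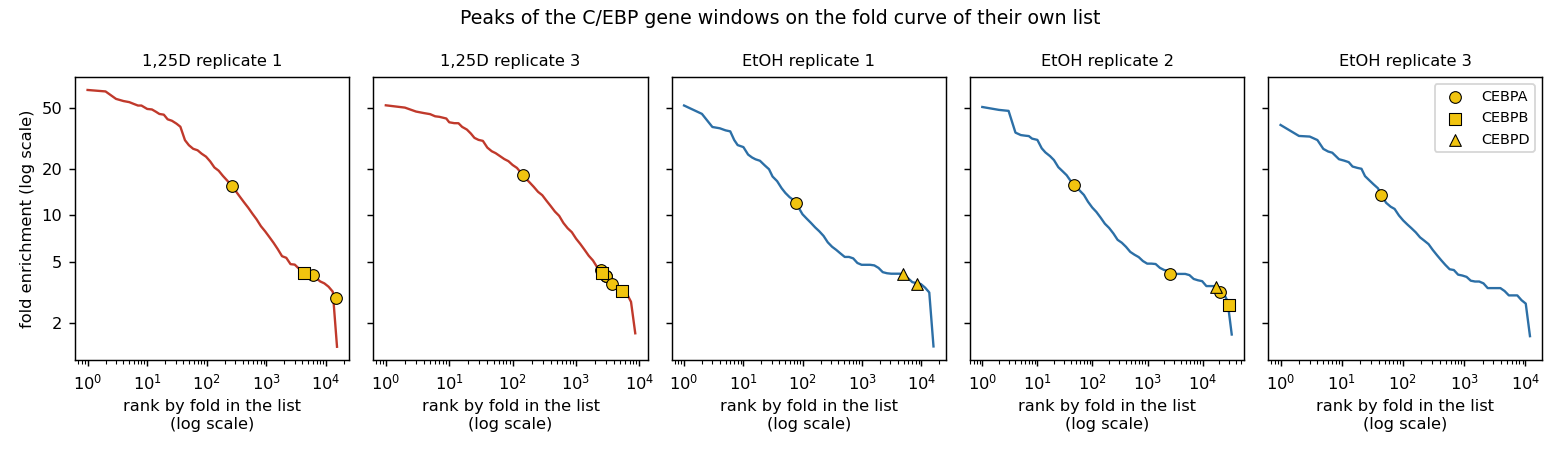
Fold enrichment against rank in each list that held a C/EBP peak (both log scales), with red lines for 1,25D and blue for EtOH and yellow symbols for the peaks of the gene windows. The strong CEBPA site lies on the steep upper part of all 5 curves, with 98.2% to 99.9% of the list below it, and the remaining peaks lie on the lower part, at folds of 2.63 to 4.42.

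All VDR peaks in the C/EBP windows with a fold of 5 or more were therefore calls of 1 site, near CEBPA. The 5 peaks of the CEBPA site with a fold of 5 or more ranked at 269 of 15262 and 145 of 8620 in the 1,25D lists, against 76 of 15974, 47 of 33820 and 44 of 11895 in the EtOH lists. The lists of 8620 and 11895 peaks stop before the end of the genome. These ranks therefore place each peak in its own list only and do not compare the treatments. The remaining 15 peaks spanned folds of 2.63 to 4.42, among them the peak of fold 2.88 that was merged into the CEBPA site. Sites found in 1 list numbered 12 over the family, 6 from 1,25D lists and 6 from EtOH lists, and were 148 to 412 bp long. Most sites of the whole series were also found in 1 list, and the exact share is not given here.

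The windows also hold other genes, so a peak in them cannot be tied to a C/EBP gene by position. In the RefSeq gene table of GRCh38, the protein-coding genes within 100 kb of CEBPA include LRP3, SLC7A10, PEPD and CEBPG, a C/EBP family member without an activation domain of its own. Near CEBPB they include UBE2V1 and PEDS1, near CEBPD SPIDR and PRKDC, and near CEBPE ACIN1, PSMB5 and SLC7A8. Whether they lie within the hg19 windows was not checked, and CEBPG, CEBPZ and DDIT3 were not analysed here as genes of their own.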

How the data were processed

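Peak lists of 6 VDR ChIPmentation libraries were used. The submitters' processing notes name Bowtie 1.1 for alignment, hg19 (GRCh37) as the build and MACS2 for peak calling. Settings, control and duplicate handling were not given in these sources. Each list gives per peak a fold enrichment, a ratio computed by the authors' peak caller, and a p-value, per the file headers. The deposited p-values reach 0.00433 and 0.00431 in both replicates 1 and 0.00978 to 0.00997 in the other lists. Incomplete last lines were left out. The base from which starts are counted is not stated, so a position may be off by 1 bp.

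Peaks were assigned to genes by overlap with the gene plus 100 kb, and peaks of different lists that shared 1 bp or more became 1 site. Sites named with all values were those in at least 2 covering lists or with a fold of 5 or more in any. Peak numbers and ranks were compared by exact permutation over libraries (Python 3.11.15, scipy 1.17.1, pandas 2.3.3); the rank comparison and the sites outside the windows were chosen after values were seen. The members, lists and windows were chosen with earlier results of these data known. Strand and promoters came from RefSeq tables of GRCh38. Merging was tested on simulated lists with planted sites set well apart, so adjoining peaks were not part of that test. Alternatives were window size, a fold of 5, 1 highest p for all lists, peak centres, 50% overlap, left-out libraries and a replicate block.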

Additional observations from a re-analysis of the deposited data

How the results depend on the processing

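Of 185 recomputed values, 169 did not change by the measure used for them. For tested differences that measure was the direction and the side of the 0.05 threshold, so they can still vary in size. It was 1 SD of the EtOH libraries for the untested CEBPD difference and 1.5 times for counts of sites. No tested difference could cross 0.05, since the smallest possible exact permutation p was 0.2 at CEBPA and CEBPB and 0.1 at CEBPE. Many counts of sites were 0 and stayed at 0. Much of the unchanged number was thus fixed in advance and is no measure of stability. With peaks of fold 5 or more, the difference in peaks per library (1,25D minus EtOH) was 0 at CEBPA, CEBPB and CEBPD, and the CEBPA 1,25D-only count was 0; fewer peaks enter there. With 200 kb on each side the difference was 3 at CEBPA and 2.67 at CEBPB (exact permutation p = 0.2 each, the smallest possible), 0.667 at CEBPE (exact permutation p = 0.7) and -4 at CEBPD (no test), and the 1,25D-only count was 2 at CEBPA, 1 at CEBPB and 1 at CEBPD. With 50 kb the strong CEBPA site falls outside and the count of sites in every list was 0. Without 1 library each, the 1,25D-only count ranged from 1 to 4 at CEBPA and 0 to 2 at CEBPB. The EtOH-only count at CEBPD ranged from 1 to 2. Fewer lists have to agree for these counts, and CEBPD has no value without its only 1,25D list. For these counts and those with 200 kb, the shares over all sites or windows are not given here. The rank difference of the CEBPA site was 40 with the replicate block (exact p = 0.5, the smallest for 2 pairs). It kept its direction in all other settings, among them a fold of 5 or more (51.5 in 1,25D lists and 21.7 in EtOH lists, of 120 sites). The ranks of the site did not overlap between treatments, so leaving out a library had little room to reverse it. The comparison was chosen after its values were seen. With the replicate block the difference in peaks was 3 at CEBPA and 1.5 at CEBPB (exact p = 0.5 each) and 0 at CEBPE. The folds of sites called in all 6 lists showed no pairing of libraries by replicate number. That check does not cover weaker peaks or list thresholds, and both replicates 1 shared a lower highest p than the other lists. The labels do not say whether same-numbered libraries were handled together. Over 298 sites called in all 6 lists, deviations of same-numbered libraries correlated at 0.0895, -0.00461 and -0.0235. Those of libraries with unlike numbers correlated at -0.0892 to 0.098. Depth is unknown, so weak peaks that miss a list cannot be told from peaks that are absent.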
